A study of Mus musculus with 7 samples.

Results

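The 10 genes Atf4, Atf5, Ddit3, Trib3, Chac1, Sesn2, Asns, Psat1, Phgdh and Slc7a11 belong to the integrated stress response that the transcription factor ATF4 carries out. They were taken from the expression table by their symbols, and all 10 were among its 22556 genes. All 10 also passed the minimum for testing, a mean over the libraries of 1 RPM (read pairs scaled to the library total on genes) or more, as did 13599 genes in all. The libraries are ChrRNA-seq, in which RNA held in the chromatin fraction is sequenced so that transcripts still being made are enriched. The cells were C7H8, 1 clone of female mouse ES (mES) cells of the Cast x 129S background in which a TetOn promoter on the Cast allele drives Xist, grown on mitomycin-inactivated fibroblast feeders. Every library, controls included, came from cells in which doxycycline (Dox) had switched Xist on for 24 h. Before and during that time the cells received DMSO or STM2457, an inhibitor of METTL3, the enzyme that places m6A on RNA, with 6 h of treatment ahead of Dox. There were 3 DMSO libraries, 2 at 10 µM STM2457, 1 at 20 µM and 1 at 30 µM.

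In the integrated stress response, kinases that sense a lack of amino acids, misfolded protein in the endoplasmic reticulum (ER), double-stranded RNA or a lack of haem phosphorylate the translation factor eIF2. General translation then falls, while the mRNA of ATF4 is translated better. ATF4 pairs with C/EBP proteins at C/EBP-ATF response elements and raises genes for amino acid synthesis and uptake, for the charging of tRNA and for cell death. Since ATF4 is set largely by translation, the RNA of its target genes is often taken as the readout of the pathway.

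Depth ran from 20915215 to 28030180 read pairs in 6 libraries and was 9300549 at 20 µM, where 1 read pair was worth 0.108 RPM and where 5 genes (Lars2, Cmss1, Gphn, Cdk8 and Camk1d) took 8.92% of all reads. The libraries did not fall by dose. On principal component 1 of 13000 autosomal genes, which left out the genes of every list used here and held 78.7% of the variance, set 1 (both 10 µM libraries with DMSO replicates 1 and 2) lay apart from set 2 (the single libraries at 20 µM and 30 µM with DMSO replicate 3). The sets are a feature of the data, and no label names them. Of 10 ES cell markers, 9 were measured, with Esrrb between 545 and 794 RPM and Nanog between 71.4 and 95.7 RPM. Every set 1 library was above every set 2 library in 3 of the 9 (Klf4, Tdgf1 and Dppa5a), against 39.8% of all genes. The reverse held for 1 (Lin28a), against 18.7%. Dppa5a measured 31.6 and 36.3 RPM in DMSO replicates 1 and 2 and 5.96 RPM in replicate 3. Sox2 was listed at 0 in all 7 libraries, and it lies wholly inside Sox2ot on the same strand. Of the feeder fibroblast markers, Col1a1 did not pass 0.86 RPM in any library and Col3a1 did not pass 0.43 RPM. Fn1 ran from 423 to 1148 RPM and Sparc from 17.3 to 79.4 RPM, Fn1 with every set 1 library above every set 2 library and Sparc the reverse, and the other 13 markers summed to 26.5 to 31.1 RPM. The part of feeder cells in the values below was not tested.

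Averaged over the 7 libraries and divided by gene length, the level was 18.6 RPM per kb for Atf4 and 13.4 for Asns. Psat1 followed at 3.74 RPM per kb, Ddit3 at 2.26, Sesn2 at 2.18, Phgdh at 1.83, Chac1 at 1.19, Trib3 at 1.11 and Atf5 at 0.663. Slc7a11, which has the longest gene body of the 10 at 78.7 kb, was lowest at 0.0369 RPM per kb. The libraries' ranges of neighbours in this order overlapped, except that the highest Slc7a11 value, 0.120 RPM per kb, lay below the lowest Atf5 value, 0.366 RPM per kb. All levels and differences below are RPM or log2(RPM + 1), compared between libraries within a gene.

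The transcription factors come first. Atf4 (chromosome 15, 80255183 to 80257545 of mm10, plus strand, with coordinates as deposited) measured 46.6, 56.8 and 16.8 RPM in DMSO replicates 1, 2 and 3, 54.6 and 85.4 RPM in 10 µM replicates 1 and 2, 27.0 RPM at 20 µM and 20.2 RPM at 30 µM. Its 4 set 1 values all lay above its 3 set 2 values, and 10 µM replicate 1 lay between the DMSO replicates. Atf5 (chromosome 7, 44812255 to 44816658, minus strand), an ATF4 relative that is likewise controlled by translation, was low. It measured 2.06, 3.50 and 1.63 RPM in DMSO replicates 1 to 3, 2.80 and 6.31 RPM at 10 µM, 1.61 RPM at 20 µM and 2.52 RPM at 30 µM, with set 1 and set 2 values overlapping. Ddit3 (chromosome 10, 127290792 to 127296288, plus strand) encodes CHOP, a C/EBP family factor linked to cell death under prolonged stress. It measured 14.1, 17.4 and 7.64 RPM in the DMSO replicates, 11.7 and 21.3 RPM at 10 µM, 6.99 RPM at 20 µM and 7.87 RPM at 30 µM, again with set 1 wholly above set 2.

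Next come targets that feed back on the pathway or on growth. Trib3 (chromosome 2, 152337424 to 152344060, minus strand), a pseudokinase that restrains ATF4, had overlapping sets, at 5.83, 7.99 and 7.41 RPM in the DMSO replicates, 5.28 and 11.3 RPM at 10 µM, 6.99 RPM at 20 µM and 6.63 RPM at 30 µM. Chac1 (chromosome 2, 119351241 to 119354327, plus strand), which degrades glutathione, measured 3.01, 5.14 and 0.419 RPM in the DMSO replicates, 3.19 and 12.5 RPM at 10 µM, 1.18 RPM at 20 µM and 0.385 RPM at 30 µM. The set 2 values of Chac1 rest on 9, 11 and 9 read pairs in DMSO replicate 3, at 20 µM and at 30 µM. Sesn2 (chromosome 4, 132492806 to 132510456, minus strand), a leucine sensor that restrains mTORC1, measured 46.1, 38.2 and 37.1 RPM in the DMSO replicates, 39.6 and 54.4 RPM at 10 µM, 21.4 RPM at 20 µM and 32.1 RPM at 30 µM. Its lowest set 1 value, 38.2 RPM, was just above its highest set 2 value, 37.1 RPM, and its lowest library was the one at 20 µM.

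The enzymes of amino acid synthesis had the highest mean RPM of the 10 over the 7 libraries, though Atf4 exceeded Phgdh in both replicate 2 libraries. Asns (chromosome 6, 7675170 to 7693182, minus strand), asparagine synthetase, measured 266, 375 and 95.4 RPM in the DMSO replicates, 291 and 469 RPM at 10 µM, 103 RPM at 20 µM and 90.9 RPM at 30 µM. Psat1 (chromosome 19, 15905122 to 15925059, minus strand), of the serine synthesis pathway, measured 87.5, 99.1 and 50.9 RPM in the DMSO replicates, 79.6 and 110.5 RPM at 10 µM, 48.7 RPM at 20 µM and 45.7 RPM at 30 µM. In both genes set 1 lay wholly above set 2, and the set 2 libraries differed little from each other. Phgdh (chromosome 3, 98313170 to 98339969, minus strand), the first enzyme of the serine pathway, varied least of the 3, at 57.3, 45.5 and 37.9 RPM in the DMSO replicates, 55.6 and 62.0 RPM at 10 µM, 38.9 RPM at 20 µM and 45.9 RPM at 30 µM, with the sets overlapping. Slc7a11 (chromosome 3, 50364935 to 50443613, minus strand), the cystine-glutamate exchanger, measured 1.58, 4.50 and 0.233 RPM in the DMSO replicates, 2.68 and 9.42 RPM at 10 µM, 0.968 RPM at 20 µM and 0.942 RPM at 30 µM. Its value in DMSO replicate 3 rests on 5 read pairs, and set 1 again lay wholly above set 2. No member overlaps another gene on its own strand.

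**Figure D1:**
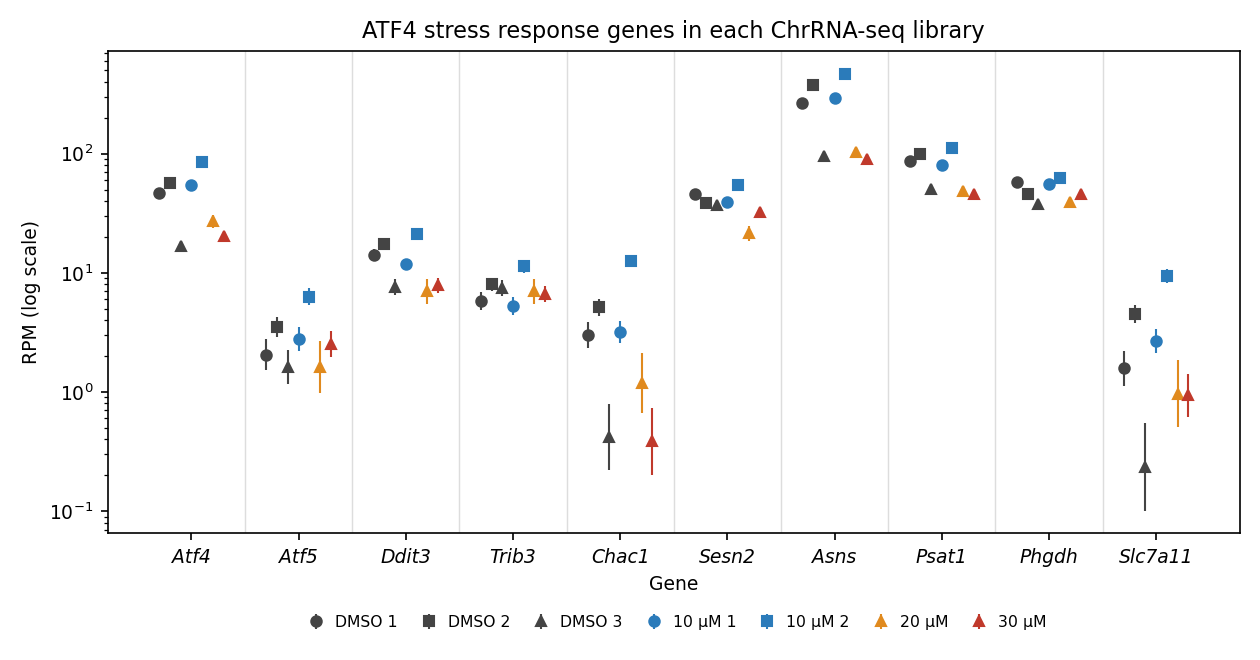
RPM (log scale) of each of the 10 genes in each of the 7 libraries, with circles for replicate 1, squares for replicate 2, triangles for the set 2 libraries and bars for the 95% Wilson interval, which covers counting error only. The square of 10 µM replicate 2 is the highest point of all 10 genes, and triangles lie below all circles and squares in 7 genes.

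The promoters were read for the letters of the C/EBP-ATF response element, TGATGNAA on either strand, in RefSeq windows of GRCm38.p6, the build of mm10, from 250 bases before to 50 bases after each gene's start. All 10 genes had a window, and 4 of them held the letters (Asns, Chac1, Slc7a11 and Trib3), against 2.69% of 10222 tested genes with a window and 3.97% of 32851 windows. The stretches of Asns, Chac1 and Slc7a11 that lie before the start are shown, with the matched letters in capitals and each stretch on its gene's strand. The match of Trib3 begins 14 bases after the start and is not shown. Atf4 and Atf5 hold no match in their windows.
Asns, chr6:7693210-7693258: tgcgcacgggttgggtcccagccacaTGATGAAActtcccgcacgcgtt
Chac1, chr2:119351023-119351082: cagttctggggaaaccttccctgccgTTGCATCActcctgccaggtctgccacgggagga
Slc7a11, chr3:50443646-50443705: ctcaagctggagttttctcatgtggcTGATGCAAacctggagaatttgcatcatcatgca
Slc7a11, chr3:50443627-50443686: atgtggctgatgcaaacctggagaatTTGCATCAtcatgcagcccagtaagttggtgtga
Counted from the RefSeq start, which in Asns lies 27 bases upstream of the deposited one, the first matched base is 23 bases before the start in Asns, 193 in Chac1, and 66 and 47 in Slc7a11, whose stretches overlap and hold 1 match on each strand. Among other genes of the pathway with a window, the letters are in 5 of 7 tRNA synthetases and 5 of 15 other ATF4-regulated stress genes. They are in 3 of 10 genes of serine, one-carbon and amino acid synthesis, 1 of 6 amino acid transporters and 1 of 8 genes of eIF2, its exchange factor and its phosphatase. None of 4 eIF2 kinases and none of 12 ER chaperones and other unfolded protein response genes hold them. A match of letters is a description of these windows, and no binding was measured.

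The question of the 10 µM libraries is whether a low dose of the inhibitor changed these genes. All 10 had a higher mean at 10 µM than in DMSO, and none passed the test (limma, over DMSO replicates 1 to 3 and both 10 µM libraries). The median difference of all genes was also above 0, and the share of all genes with a higher mean was not counted. The differences on the log2 scale were 0.92 for Atf4 (SE 0.51), 1.20 for Chac1 (SE 0.73), 1.25 for Slc7a11 (SE 0.70) and 0.80 for Asns (SE 0.56), with a limma adjusted p of 0.811 each. Those of the others were 0.67 for Atf5, 0.34 for Phgdh, 0.33 for Ddit3, 0.30 for Psat1, 0.20 for Sesn2 and 0.13 for Trib3, and their limma adjusted p ran from 0.811 to 0.896. The median over the 10 genes was 0.50, against 0.09 over all genes tested. Without DMSO replicate 3 the differences were smaller, at 0.40 for Atf4, 0.60 for Chac1, 0.72 for Slc7a11 and 0.23 for Asns, and the median was 0.21. In each of the 10 genes the 10 µM values overlapped the DMSO values, and the share of all genes with such an overlap was not counted. In all, 0 of 13599 genes passed limma at this comparison (0%), with 212 at an unadjusted p under 0.05. edgeR called 0 genes and DESeq2 called 1, which was no member.

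Libraries with the same replicate number came from the same batch of cells, so the 2 DMSO and 10 µM pairs were also compared with the replicate number as a block. Of the 10 genes, 5 were then higher at 10 µM and none lower, against 4.13% of all genes higher and 3.38% lower in the same fit (7.50% in all). Atf4 rose by 0.40 on the log2 scale (SE 0.0866, limma adjusted p = 0.000279) and Slc7a11 by 0.72 (SE 0.172, limma adjusted p = 0.00152). Chac1 rose by 0.60 (SE 0.171, limma adjusted p = 0.0120), Asns by 0.23 (SE 0.0634, limma adjusted p = 0.0105) and Atf5 by 0.51 (SE 0.172, limma adjusted p = 0.0444). The other 5 did not pass. Phgdh differed by 0.20 (limma adjusted p = 0.172), Trib3 by 0.17, Sesn2 by 0.14, Ddit3 by 0.02 and Psat1 by 0.01, with limma adjusted p from 0.419 to 0.958 for the last 4. The median of the 10 was 0.21, against 0.03 over all genes. With edgeR and the block, Atf4, Chac1, Slc7a11 and Atf5 passed and Asns did not (adjusted p = 0.271), against 3.11% of all genes higher and 3.04% lower (6.15% in all). With the block and a pseudocount of 0.1, Atf5 did not pass (limma adjusted p = 0.0655).

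These calls rest on 2 pairs that did not move alike. In pair 1 (replicate 1), 5 of the 10 genes were higher at 10 µM, against 46.8% of all genes, and in pair 2 all 10 were, against 62.7%. In both pairs 5 were higher, against 36.3%, and none lower, against 26.9%. The second library at 10 µM was the highest of the 7 in all 10 genes, against 24.9% of all genes. Atf4 was 1.17-fold DMSO in pair 1 (95% counting interval 1.08 to 1.27) and 1.50-fold in pair 2 (1.41 to 1.61). Slc7a11 was 1.70-fold (1.11 to 2.66) and 2.09-fold (1.68 to 2.63), and Asns 1.09-fold (1.06 to 1.13) and 1.25-fold (1.22 to 1.29). So these 3 genes were higher than counting error allows in both pairs. Atf5 was 1.36-fold in pair 1, where its interval of 0.919 to 2.04 spans 1, and 1.80-fold in pair 2 (1.39 to 2.35). Chac1 was 1.06-fold in pair 1 (0.753 to 1.50) and 2.43-fold in pair 2 (1.98 to 2.99), so its call came from the second pair. In pair 1, Ddit3 was 0.836-fold, Sesn2 0.859-fold and Psat1 0.910-fold, each with an interval below 1, whereas in pair 2 they were 1.23-fold, 1.42-fold and 1.11-fold, each with an interval above 1. Trib3 and Phgdh turned in the same way, from 0.906-fold and 0.970-fold, whose intervals span 1, to 1.42-fold and 1.36-fold.

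In each of the 10 genes the difference was larger in pair 2, and the median over all genes was also larger there, at 0.06 against -0.02 in pair 1. For all 10 the standard error that the 2 pairs alone give was above the limma SE. It was 0.18 for Atf4, 0.20 for Slc7a11 and 0.54 for Chac1. The share of all genes in which it was above the limma SE was not counted. In the same fit 1 of 6 feeder markers tested was called, Fn1, which fell by 0.26 at 10 µM (limma adjusted p = 0.00157). This call was not made by edgeR with the block (adjusted p = 0.227). Of the 6 markers 3 had a positive difference, and their median was 0.02. The part of feeder cells in the result was not tested. With 1 residual degree of freedom, limma took the spread wholly from genes of like level, so that a gene's own disagreement between pairs did not widen its interval. The DMSO replicates of set 1 also differed from each other, in Slc7a11, Asns, Ddit3 and Psat1 by more than either pair did. Slc7a11 was 2.85-fold higher in DMSO replicate 2 than in replicate 1 (1.93 to 4.32), Chac1 1.71-fold and Asns 1.41-fold, and 8 of the 10 genes were higher in replicate 2 (all genes 42.3%), Sesn2 and Phgdh being lower. The order 10 µM replicate 2, DMSO replicate 2, 10 µM replicate 1, DMSO replicate 1 from high to low was that of 5 genes (Atf4, Asns, Chac1, Slc7a11 and Atf5), against 8.64% of all genes.

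**Figure D2:**
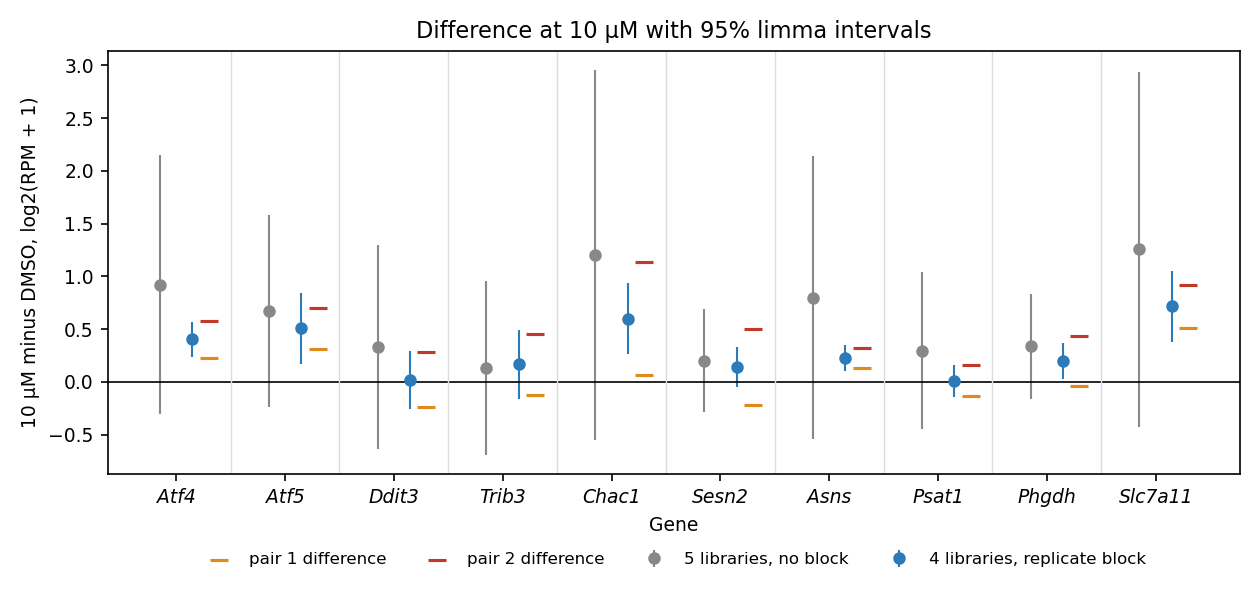
Difference between 10 µM and DMSO on the log2(RPM + 1) scale for each gene, over 5 libraries without a block (grey) and over 4 libraries with the replicate block (blue), with 95% limma intervals, beside the difference within each pair (dashes). The grey intervals of all 10 genes span 0, the blue ones of 6 do not (Phgdh among them, which did not pass after adjustment), and the dash of pair 2 lies above that of pair 1 in all 10 genes.

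Over dose, the same genes gave the opposite sign. With dose as a number over all 7 libraries, the slopes of all 10 were negative and none passed the test. The median slope of all genes was also below 0, and the share of all genes with a negative slope was not counted. Asns had the steepest at -0.43 per 10 µM (SE 0.26, limma adjusted p = 0.508), followed by Chac1 at -0.38, Psat1 at -0.26, Atf4 at -0.24 and Ddit3 at -0.24. Sesn2 followed at -0.19 and Slc7a11 at -0.15, and Phgdh, Atf5 and Trib3 lay between -0.03 and -0.02. The median was -0.22, against -0.04 over all genes, of which 0 of 13599 (0%) passed with limma (1174 at an unadjusted p under 0.05), 0 with edgeR and 129 with DESeq2.

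The library sets differed in many of these genes. Every set 1 library was above every set 2 library in 7 of the 10 genes (Atf4, Ddit3, Asns, Chac1, Sesn2, Psat1 and Slc7a11), against 39.8% of all genes, and the reverse held for none, against 18.7%. With TMM scaling the count was 6 of 10, without Sesn2, against 29.2%. Among the DMSO libraries alone, where no inhibitor was present, replicate 3 lay below the mean of replicates 1 and 2 by 1.56 on the log2 scale in Atf4, 1.72 in Asns, 1.81 in Chac1 and 1.61 in Slc7a11. Ddit3 was lower by 0.95 and Psat1 by 0.86, while Sesn2 was lower by 0.17 and Trib3 higher by 0.10. The median of the 10 was -0.90, against -0.18 over all genes, and with TMM scaling it was -0.73 against -0.01. Because 20 µM and 30 µM were measured only in set 2, the difference between these libraries and DMSO replicates 1 and 2 cannot be told apart from that between the sets. In bulk RNA, fewer cells that express a gene and less RNA per cell cannot be told apart either.

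With the library set as a term, none of the 10 slopes passed the test. Of all genes 0.199% passed it, 0.0735% with a positive slope and 0.125% with a negative one. Passing or not, 7 of the 10 slopes were positive. The median slope of all genes was also above 0, and the share of all genes with a positive slope was not counted. The median of the 10 slopes was 0.07, against 0.01 over all genes. Slc7a11 had a slope of 0.32 per 10 µM (SE 0.19), Atf5 of 0.19 (SE 0.13) and Atf4 of 0.17 (SE 0.0989), with limma adjusted p of 0.635, 0.744 and 0.635. Asns, which had the steepest fall without the term, was at 0.03. With the set and the replicate block together, where none of the 10 and 0.427% of all genes passed (0.176% with a positive slope and 0.250% with a negative one), Slc7a11 kept a slope of 0.32 (SE 0.10) at a limma adjusted p of 0.206, and of 0.75 at an adjusted p of 0.0515 with edgeR, so that it missed the threshold in both. Leaving out DMSO replicate 3, the control of set 2, gave 2485 genes (18.3%) past the threshold in the fit without the term, 6.97% of all genes with a positive slope and 11.3% with a negative one. Of the 10 genes 2 were among them, both falling. These were Asns, with a slope of -0.69 (limma adjusted p = 0.0316), and Psat1, with a slope of -0.38 (limma adjusted p = 0.0330). The fit then sets 20 µM and 30 µM against set 1 alone.

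Against DMSO replicate 3, the control of their own set, the single 20 µM and 30 µM libraries gave ratios above 1 at both doses for Slc7a11, Atf4 and Phgdh. The comparison has no replicates, both doses share this control, and the intervals cover counting error only. Slc7a11 was 4.16-fold at 20 µM (1.25 to 15.8) and 4.04-fold at 30 µM (1.49 to 13.7), on 9 and 22 read pairs against 5. Atf4 was 1.61-fold at 20 µM (1.36 to 1.90) and 1.21-fold at 30 µM (1.05 to 1.39). Both genes were higher than the DMSO library of their set or number in all 4 inhibitor libraries. This held for 2 of the 10 genes, a share near the 15.9% of all genes. For both, the direction in all 4 was the same with TMM scaling and with the 5 abundant genes of the 20 µM library left out of the total.

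The other genes were mixed at the higher doses. At 20 µM 5 of the 10 were above DMSO replicate 3, against 38.3% of all genes, and at 30 µM 5 were, against 56.8%. Sesn2 was lower in both, at 0.577-fold (0.492 to 0.675) and 0.866-fold (0.783 to 0.958). Phgdh was 1.03-fold at 20 µM (0.905 to 1.16) and 1.21-fold at 30 µM (1.10 to 1.33), and Chac1 was 2.82-fold (1.06 to 7.70) and 0.919-fold (0.323 to 2.61). Asns was 1.08-fold and 0.953-fold, with intervals that span 1, and Ddit3 and Trib3 likewise spanned 1 at both doses. Psat1 was 0.957-fold at 20 µM, which spans 1, and 0.898-fold at 30 µM (0.824 to 0.978). Atf5 was 0.989-fold and 1.55-fold. At 20 µM the direction of Ddit3, Trib3, Psat1 and Atf5 turned with TMM scaling, and at 30 µM that of Ddit3 did.

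**Figure D3:**
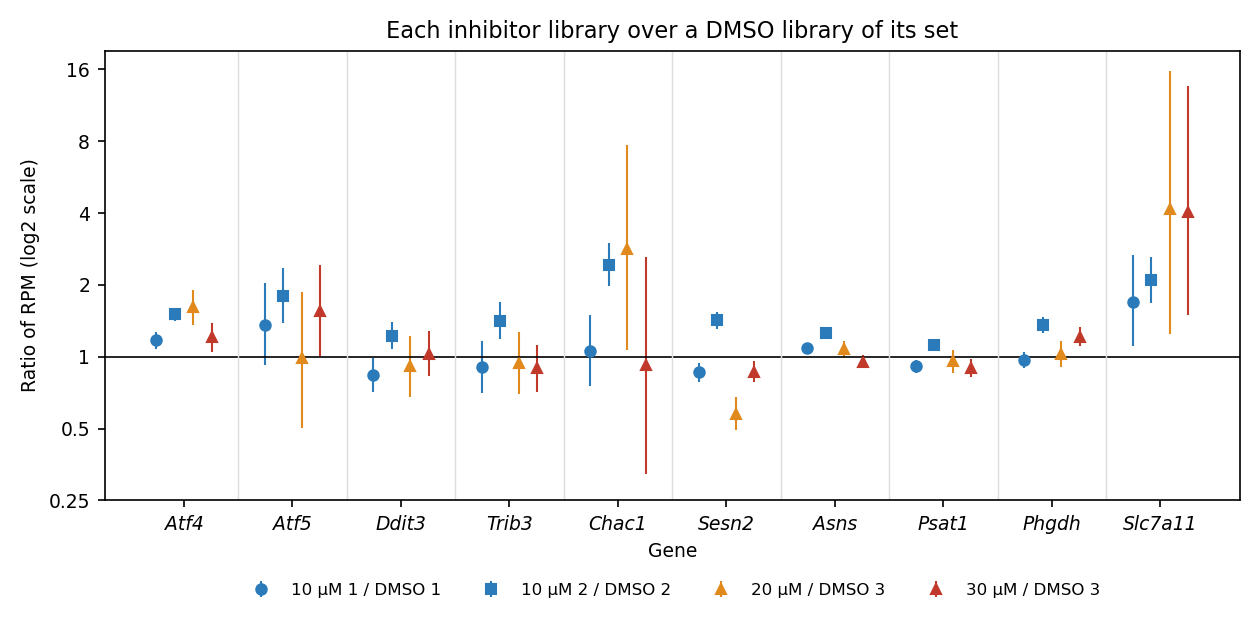
Ratio of RPM (log2 scale) of each inhibitor library to the DMSO library of the same number (10 µM, blue) or to DMSO replicate 3 (20 µM orange, 30 µM red), with exact 95% intervals for counting error. All 4 points of Atf4 and of Slc7a11 lie above 1 with their intervals, and the points of Sesn2 lie on both sides of 1.

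Other genes of the pathway were read from lists by role. In the fit with the block, against which each count below is given, 4.13% of all genes were higher at 10 µM and 3.38% lower. None of the eIF2 kinases, which start the response, was called higher. In this fit 1 of 4 was lower, Eif2ak2 (PKR, the kinase that senses double-stranded RNA), which fell by 0.30 on the log2 scale (limma adjusted p = 0.0251). It measured 48.0, 53.0 and 55.7 RPM in DMSO, 37.4 and 44.2 RPM at 10 µM, 54.1 RPM at 20 µM and 50.2 RPM at 30 µM. The values at 20 µM and 30 µM lay within the range of the DMSO libraries, and below DMSO replicate 3. Of the subunits of eIF2, its exchange factor eIF2B and its phosphatase, 1 of 10 was higher, Eif2b5 (the catalytic subunit of eIF2B), by 0.26 (limma adjusted p = 0.0365), a call that edgeR did not make (adjusted p = 0.0987). The medians of these lists in DMSO replicate 3 against replicates 1 and 2 were -0.05 and -0.06, above that of all genes.

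Among 18 other ATF4-regulated stress genes tested, 3 were higher with the block and none lower (all genes 4.13% and 3.38%). They were Atf3, a stress-induced factor of the ATF family, by 0.71 (limma adjusted p = 0.00146), Vldlr, a lipoprotein receptor, by 0.41 (limma adjusted p = 0.0284), and Cebpg, a C/EBP partner of ATF4, by 0.36 (limma adjusted p = 0.0115). Atf3 measured 3.35, 4.71 and 1.44 RPM in DMSO, 4.69 and 10.7 RPM at 10 µM, 2.26 RPM at 20 µM and 2.18 RPM at 30 µM. It was higher than the DMSO library of its set or number in all 4 inhibitor libraries, as were 15.9% of all genes. Set 1 lay wholly above set 2 in 15 of the 18, against 39.8% of all genes, with a median of -1.09 in DMSO replicate 3 against replicates 1 and 2. Of 12 genes of serine, one-carbon and amino acid synthesis, 3 were higher with the block, the mitochondrial folate enzyme Mthfd2 by 0.40 (limma adjusted p = 0.0254), Cth, which makes cysteine, by 0.31 (limma adjusted p = 0.0247) and Gpt2, an alanine transaminase, by 0.29 (limma adjusted p = 0.0284), a call that edgeR with the block did not make (adjusted p = 0.0572). None was lower, and set 1 lay above set 2 in 10 of 12, against 39.8% of all genes.

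Of 13 aminoacyl-tRNA synthetases, which load amino acids onto tRNA, 3 were higher with the block, Nars by 0.33 (limma adjusted p = 0.000615), Aars by 0.21 (limma adjusted p = 0.0417) and Cars by 0.20 (limma adjusted p = 0.0356), and none was lower. With edgeR and the block only Nars passed in this list, and set 1 lay above set 2 in 9 of 13, against 39.8% of all genes. None of 9 amino acid transporters passed in either direction, Slc1a4, a carrier of alanine and serine, being 0.25 higher (limma adjusted p = 0.0792), and set 1 lay above set 2 in 6 of 9. None of 14 ER chaperones and genes of the other unfolded protein response branches passed either, and their median with the block was -0.06. Set 1 lay above set 2 in 8 of 14 of them. Xbp1, the factor of the IRE1 branch, measured 36.8, 32.4 and 13.3 RPM in DMSO, 30.1 and 35.9 RPM at 10 µM, 9.89 RPM at 20 µM and 9.41 RPM at 30 µM. In the fit without the block no gene of any of these lists passed, nor did any with dose, with or without the set term.

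**Figure D4:**
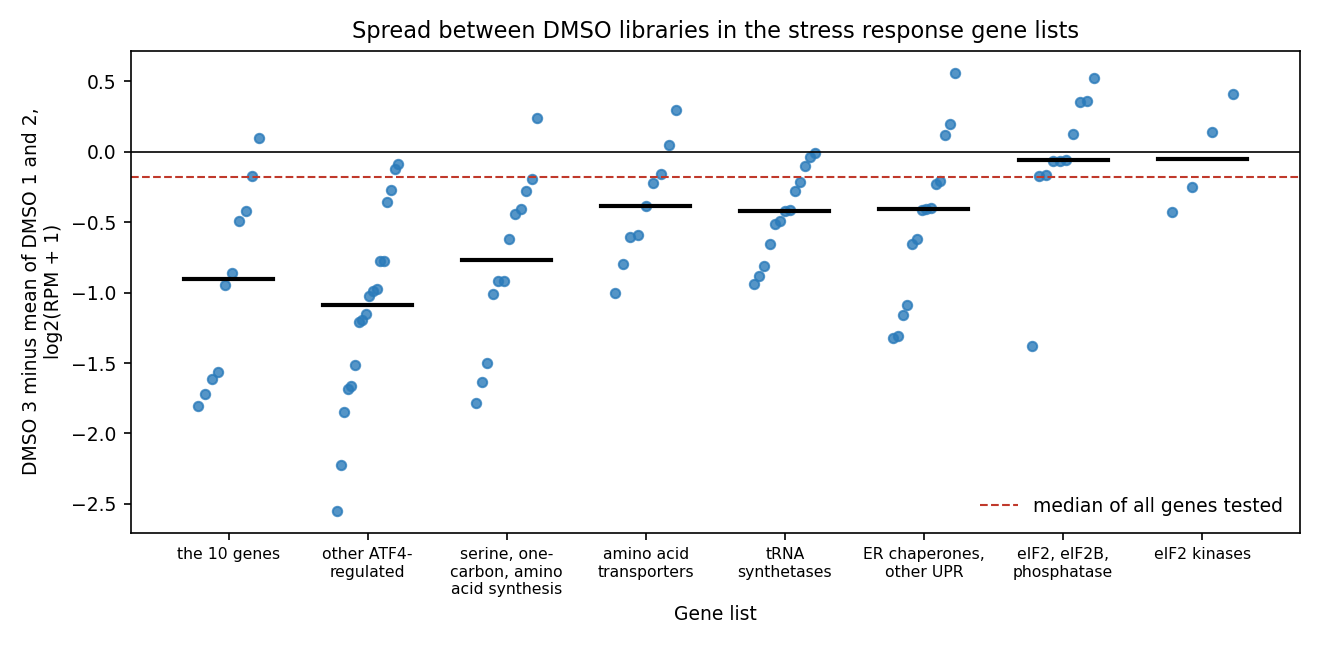
Difference between DMSO replicate 3 and the mean of DMSO replicates 1 and 2 on the log2(RPM + 1) scale, for each tested gene of the 10 and of 7 other lists, with black lines for list medians and a dashed line for the median of all genes tested, -0.18. The medians of the 10 genes (-0.90) and of the other ATF4-regulated genes (-1.09) lie lowest and those of the eIF2 kinases and eIF2 subunits lie above the dashed line.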

How the data were processed

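ChrRNA-seq libraries from 7 samples were used (3 DMSO, 2 at 10 µM STM2457, 1 at 20 µM and 1 at 30 µM). The authors discarded rRNA reads with bowtie2, mapped the remainder to mm10 with SNP positions masked using STAR, retained unique alignments, counted read pairs over whole gene bodies by strand with featureCounts, and deposited them as RPM. The deposited allelic fraction, Xi over the sum of both alleles, was read for X-linked list genes only, and no member is X-linked. Whole read pairs were recovered from the smallest step of RPM in each library (100% of values above 0, within 5.1e-05 RPM). Depth was 9300549 to 28030180 read pairs.

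For the 13599 genes averaging 1 RPM or more, log2(RPM + 1) was fitted with limma 3.58.1 (lmFit, trended eBayes), p-values were adjusted over all of them by Benjamini-Hochberg, and 0.05 was the threshold. Changes of low genes are understated on this scale. Recovered read pairs were fitted in R 4.3.3 with edgeR 4.0.16 (quasi-likelihood) and with DESeq2 1.42.0. Counting intervals are 95% Wilson (levels) or exact (ratios) and cover counting error only. Deposited starts of the plus-strand members (Atf4, Ddit3 and Chac1) are 1 base below those of RefSeq. Ratios and counts of genes were computed in Python 3.11.15 with pandas 2.3.3 and scipy 1.17.1.

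The replicate block used DMSO and 10 µM replicates 1 and 2. The pairing comes from the labels' replicate numbers and the study's methods, by which 1 batch of cells was divided into each replicate's wells. Same-numbered libraries deviated together from their 2-library group means (r = 0.621 across 13599 genes), a single contrast per group. With DMSO deviations taken from the mean of all 3 DMSO libraries, r was 0.040 for replicate 1 and 0.573 for replicate 2. The libraries are repeats of 1 clone, so no p-value covers the spread between clones. In the block fit, with 1 residual degree of freedom, limma took the spread wholly from genes of like level. Its p-values there do not measure a gene's own spread between pairs. Library sets were defined after the values were seen.

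The members and the gene lists were chosen with earlier results of these data known. Named are all members and, from each list, at most 3 genes past the threshold with the largest change, otherwise the 2 steepest over dose. Lists of cell markers served only as checks.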

Additional observations from a re-analysis of the deposited data

How the results depend on the processing

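At 10 µM, the genes called rose from 0 to 1020 with the replicate block (the pairing of replicates 1 and 2), 837 with the block and edgeR, 1023 with the block and a pseudocount of 0.1, and 1 with DESeq2, and they ran from 0 to 1 when single libraries were left out. Members called were 5, 4 (without Asns) and 4 (without Atf5) in the 3 block fits and 0 in the other fits run. Over dose, calls rose from 0 to 129 with DESeq2, 27 with the library set as a term, 73 with the set and edgeR, 156 with the set and no 20 µM library, 58 with the set and replicate block and 209 with both and edgeR, and ran from 0 to 2485 when single replicates were left out, with 0 to 2 members. The 2485 and the 2 members came without DMSO replicate 3. The fits that combine the block or the set with another choice, and those without the 5 abundant genes, were chosen after seeing the data.

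Single genes turned in direction as follows, in log2 units, and none of these values passed the test. With single libraries left out, the 10 µM differences ran from -0.069 to 0.74 for Ddit3, from -0.35 to 0.62 for Trib3 and from -0.024 to 0.42 for Sesn2, the lowest each without 10 µM replicate 2. They ran from -0.24 to 0.20 for Slc7a3 (0.035 without DMSO replicate 1), and, lowest without DMSO replicate 3, from -0.068 to 0.63 for Xbp1 and from -0.16 to 0.50 for Manf. With the block, with edgeR and with a pseudocount of 0.1, Xbp1 was -0.068, -0.089 and -0.070 and Manf -0.16, -0.19 and -0.17, and Psat1 was -0.0090 with the block and edgeR. The dose slopes (per 10 µM) turned positive with the set term alone, with the set and edgeR, with the set and no 20 µM library, with the set and replicate block, and with both and edgeR, in this order, for Atf4 at 0.17, 0.18, 0.14, 0.17 and 0.18, for Asns at 0.030, 0.029, 0.023, 0.030 and 0.026, for Chac1 at 0.13, 0.38, 0.10, 0.13 and 0.34, for Phgdh at 0.10, 0.095, 0.11, 0.10 and 0.096, for Slc7a11 at 0.32, 0.75, 0.31, 0.32 and 0.75, for Atf5 at 0.19, 0.28, 0.21, 0.19 and 0.29, and for Ddit3, in the first 4, at 0.0060, 0.0069, 0.014 and 0.0060. With TMM, edgeR and DESeq2 and no term, Trib3 was 0.024, 0.022 and 0.015, Phgdh 0.015, 0.013 and 0.0082, and Atf5 0.015, 0.017 and 0.011. Without the 30 µM library, Atf4 was 0.030, Trib3 0.024, Chac1 0.0072 and Slc7a11 0.091. Without the 20 µM library, Phgdh was 0.013 and Atf5 0.062. With single replicates left out, the slopes ran from -0.066 to 0.0015 for Trib3 (highest without DMSO replicate 2), from -0.11 to 0.026 for Atf5 (likewise) and from -0.097 to 0.0028 for Phgdh (highest without DMSO replicate 1). The cause was not tested, except that the set term by its construction compares libraries within sets. Of 593 alternative values for 35 gene and comparison results, 66 turned in direction, 44 passed the threshold only under the alternative and 483 did neither.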

Other observations

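The allelic ratio, the share of RNA from the Xist-coated Cast allele, was given for 2 X-linked genes of the lists, and the reads behind each ratio are unknown. Slc7a3, an arginine and lysine transporter, had ratios of 0.249, 0.252 and 0.222 in the DMSO libraries and of 0.201 and 0.197 in those at 10 µM. Its ratio was 0.0833 with 20 µM of the inhibitor and 0.0727 with 30 µM. All 4 inhibitor libraries lay below all 3 DMSO libraries, and how many of the 386 X-linked genes with a ratio separated in this way was not counted. The median over 386 X-linked genes ran from 0.313, 0.307 and 0.269 in DMSO to 0.288 and 0.292 with 10 µM, 0.216 with 20 µM and 0.204 with 30 µM. The level of Slc7a3 was 49.9, 47.3 and 41.6 RPM in DMSO and 39.0 and 53.0 RPM with 10 µM. It was 29.0 RPM with 20 µM and 23.9 RPM with 30 µM. Eif2s3x, the gamma subunit of eIF2, had ratios between 0.378 and 0.426, and its DMSO and inhibitor libraries overlapped.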
